A study of Mus musculus with 16 samples.

Results

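The 9 genes described here, Adam8, Adam9, Adam10, Adam12, Adam15, Adam17, Adam19, Adam23 and Adam33, encode ADAM proteins, membrane-anchored relatives of the snake venom metalloproteases. They were taken as the rows of a mouse tail disc expression table that carry these gene names, 9 of 49315 genes. A gene was tested when it had a TPM (its transcripts, scaled for gene length, out of a fixed total per library) of at least 1 in at least 3 libraries, which 24188 genes and 8 of the 9 members did. Adam33 reached 1 TPM in 2 libraries and did not enter the fit across genes.

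Bulk RNA sequencing had been done on 16 mice in 4 groups, with the 4 tail discs of a mouse pooled into 1 library. Intact discs came from 3 wild-type mice and from 4 mutants labelled Adam8EQ, and injured discs came from 4 wild-type mice and 5 mutants. The series title sets the mutant against DBA mice. What the EQ allele changes, the strain of the mutants, the age of the mice, the way of injury and the time after it are not given in the sources used here, and the level of Adam8 as a whole gene does not check the allele.

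An ADAM protein holds a prodomain, a metalloprotease domain and a disintegrin domain outside the cell. Members with an active protease cut the outer parts off other membrane proteins, a step called shedding that releases cytokines, growth factors and receptor fragments. Furin and related convertases take off the prodomain of many members, though not of all, and tissue inhibitors of metalloproteinases (TIMPs) block several members. Neither was examined here for ADAM8. ADAM8 is best known from leukocytes and osteoclasts, and fibronectin, a glycoprotein of the disc matrix, is among its known substrates.

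The depth implied by the deposited values was 10197056 to 24830618 reads a library, with a median of 13299054, and 20085 to 21919 genes reached 1 TPM. Disc and cartilage markers were high in all 16 libraries, with a summed level of 3964 to 18556 TPM over 6 genes. Libraries of 1 group differed most among injured discs. Injured wild-type mice 1 and 2 lay near the intact libraries in leukocyte markers, with summed macrophage markers (7 genes) of 249 and 380 TPM against 3521 and 2333 TPM in injured wild-type mice 3 and 4. Injured mutant 2 lay above every other library, at 7711 TPM. Where leaving out 1 of these libraries changed a call, that is said beside the result.

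The promoters of the members that stood apart after injury are shown for Adam8 and Adam19, since these were among the genes with the largest rises and their windows differ in the motifs they hold. RefSeq entries on GRCm38.p6 were found for 6 of the 9 members, namely Adam8, Adam10, Adam15, Adam17, Adam19 and Adam23, and Adam9, Adam12 and Adam33 had none. Each run gives the 250 bases before a start site, 5′ to 3′ on the gene's strand. The Adam8 window is chr7:139992563-139992812 on the minus strand, next to the annotated start of the gene. The Adam19 window is chr11:46055734-46055983 on the plus strand, before 1 of its 3 listed starts, which lies 8 bases before the annotated start of the gene. Capitals mark matches to AP-1 (TGACTCA or TGAGTCA), STAT (TTCNNNGAA) or NF-kappaB motifs on either strand.
Adam8: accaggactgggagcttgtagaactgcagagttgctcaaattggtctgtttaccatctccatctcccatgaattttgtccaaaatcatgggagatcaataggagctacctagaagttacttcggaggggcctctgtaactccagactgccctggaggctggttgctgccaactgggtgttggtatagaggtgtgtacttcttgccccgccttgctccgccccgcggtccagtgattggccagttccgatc
Adam19: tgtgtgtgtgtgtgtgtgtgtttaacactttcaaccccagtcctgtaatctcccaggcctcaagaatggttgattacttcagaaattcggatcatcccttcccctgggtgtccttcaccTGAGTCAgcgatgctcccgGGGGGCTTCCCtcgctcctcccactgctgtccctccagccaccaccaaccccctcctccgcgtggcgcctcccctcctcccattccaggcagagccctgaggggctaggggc
In the Adam19 window, 1 AP-1 match began 131 bases before the start, and 2 overlapping NF-kappaB matches began at 112 and 111 bases. None of the 3 motifs was found in the Adam8 window, nor in the windows of Adam10, Adam15, Adam17 and Adam23 or at the other starts of Adam19. Over 32851 windows of the same length, 4.46% held the AP-1 letters, 7.02% the STAT letters and 7.25% an NF-kappaB match. The GC content was 52.8% in the Adam8 window and 60.0% in the Adam19 window, against 62.0% to 74.0% in those of Adam10, Adam15, Adam17 and Adam23. A match is a run of letters and was not tested as a site.

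In intact discs the members fell into 3 tiers of expression. Levels are in TPM, which is scaled to gene length and can be set side by side between genes. Adam15, Adam10 and Adam9 were highest, with means of 55.1, 51.0 and 47.4 TPM over the 7 intact libraries, and their ranges overlapped. Adam17 followed at 25.3 TPM, apart from the genes on both sides of it. Adam23 (7.42 TPM), Adam19 (4.35 TPM), Adam8 (1.53 TPM), Adam12 (1.01 TPM) and Adam33 (0.408 TPM) made up the low tier, where each gene overlapped with the next. Adam8, the gene that carries the mutation, thus had the third lowest mean of the 9, on 15 to 34 implied reads a library.

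After injury this order closed up. Over the 9 injured libraries the means ran from 86.6 TPM for Adam9 through 71.0 for Adam10, 63.0 for Adam8, 57.0 for Adam15, 48.8 for Adam17, 36.0 for Adam19 and 29.6 for Adam12 to 5.55 for Adam23. Each of these genes overlapped with its neighbour in the order, and Adam33 stood apart below them at 0.562 TPM. The place of Adam8 rests on injured mutant 2. Without that library, left out after seeing the data, the mean of Adam8 was 37.8 TPM, below the 54.6 TPM of Adam15 and the 46.0 TPM of Adam17. Adam8 made up 0.687% to 0.856% of the summed TPM of the 9 genes in intact wild-type discs and 0.461% to 1.48% in intact mutant discs. Its share was 1.78% to 14.8% in injured wild-type discs and 5.18% to 37.3% in injured mutant discs. Only in injured mutant 2 was Adam8 the highest of the 9 genes, and without it the highest share was 15.0%.

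**Figure D1:**
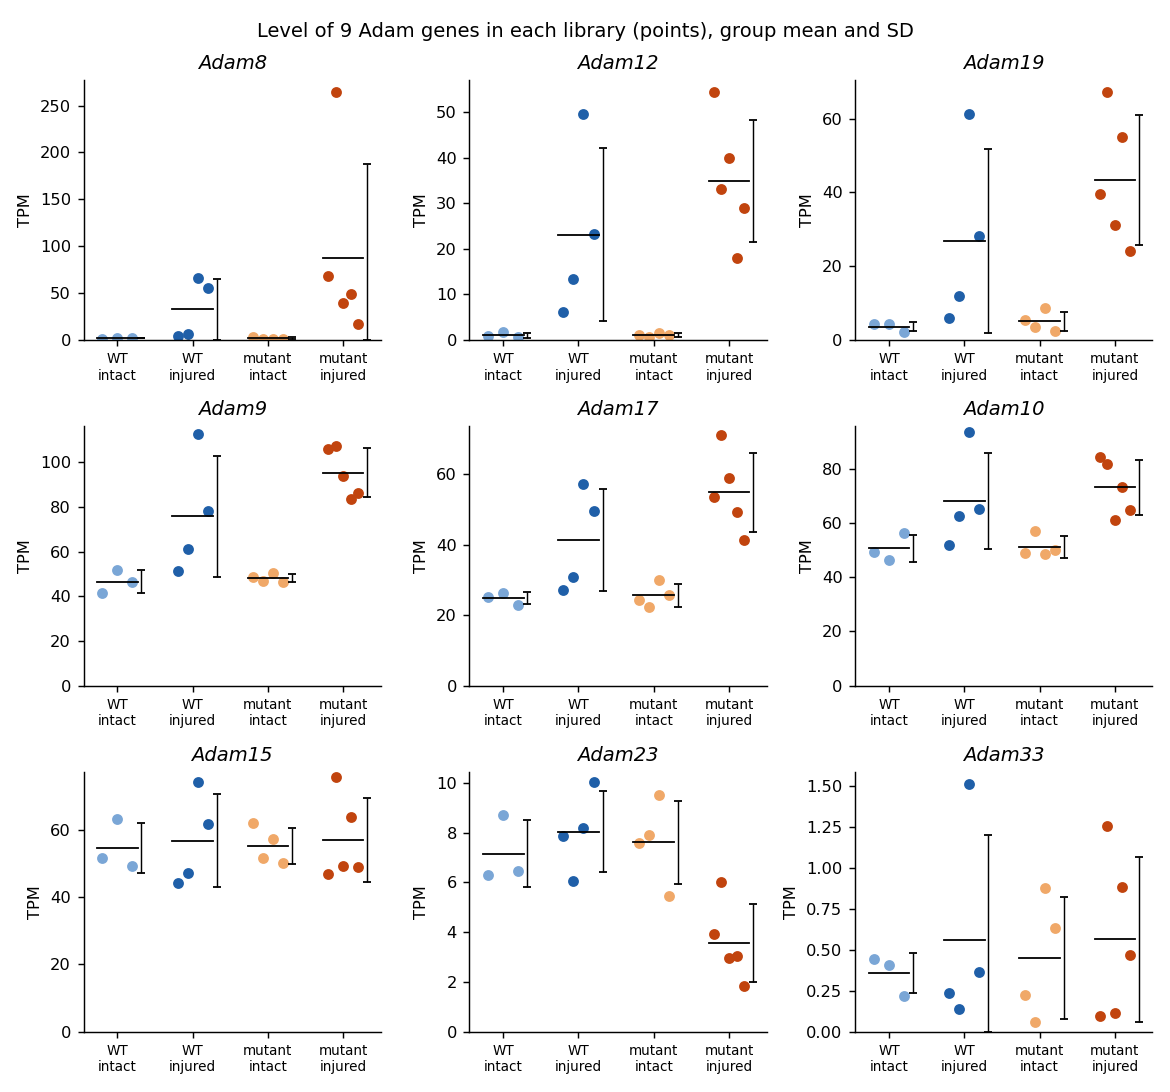
Level of each of the 9 Adam genes in TPM (linear axes from 0, a scale of its own for each gene) in 3 intact wild-type, 4 injured wild-type, 4 intact mutant and 5 injured mutant libraries. Points are libraries, lines are group means and bars are the SD, cut at 0 where the mean less the SD was negative. Adam8, Adam12 and Adam19 were near 0 in intact discs, Adam15 was level across the groups, and Adam23 was lowest in injured mutants.

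The injury comparison asked which members differ between injured and intact discs of 1 genotype. In mutants, 6 of the 8 tested members rose and 1 fell at an adjusted p under 0.05 in limma, where 13.1% of all tested genes rose and 17.7% fell. In wild-type mice 1 of the 8 rose and 0 fell, where 0.107% of all tested genes rose and 0.00827% fell. There 6 of the 8 had an unadjusted p under 0.05, against 17.2% of all tested genes. The median difference of the 8 members on the log2(TPM + 1) scale was 1.01 in mutants and 0.64 in wild-type mice, against -0.08 and 0.01 over all tested genes. Fold values on this scale understate the change of genes with low levels. In bulk samples, a change in the number of cells of a type and a change in RNA per cell cannot be told apart.

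Adam8 (ENSMUSG00000025473; GRCm38 chromosome 7, 139978932 to 139992562, minus strand) encodes the leukocyte-associated sheddase. Its level was 1.24, 1.69 and 1.59 TPM in intact wild-type discs 1 to 3 and 2.97, 1.08, 0.956 and 1.20 TPM in intact mutant discs 1 to 4. In injured wild-type discs 1 to 4 it was 3.52, 5.59, 66.3 and 54.9 TPM, and in injured mutant discs 1 to 5 it was 68.4, 264.1, 39.4, 48.3 and 16.2 TPM. All injured libraries lay above all intact ones, but injured wild-type mice 1 and 2 were close to the intact range and mice 3 and 4 were within the range of the injured mutants.
In group means this was 1.55 ± 0.948 TPM (SD, n = 4) in intact and 87.3 ± 101 TPM (SD, n = 5) in injured mutants, or 43.1 ± 21.6 TPM (SD, n = 4) without injured mutant 2. Adam8 rose by 4.56 ± 0.81 (log2 difference ± moderated SE, limma adjusted p = 0.001556), the 35th highest difference of the 24188 tested genes. In wild-type mice the means were 1.51 ± 0.235 TPM (SD, n = 3) and 32.6 ± 32.7 TPM (SD, n = 4). The difference there was 2.87 ± 0.92, with a 95% interval of 0.90 to 4.84, and did not pass (limma adjusted p = 0.1719), nor did it when any 1 library was left out (adjusted p = 0.05562 to 0.4274).

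Adam12 (ENSMUSG00000054555; chromosome 7, 133883199 to 134232146, minus strand) encodes meltrin alpha, a protease of mesenchymal cells that can shed heparin-binding EGF-like growth factor. It lies on the same chromosome as Adam8, with 5.75 Mb between them. Its level was 0.803, 1.61 and 0.550 TPM in intact wild-type discs and 0.918, 0.654, 1.48 and 1.03 TPM in intact mutant discs. In injured wild-type discs 1 to 4 it was 6.18, 13.3, 49.5 and 23.1 TPM, and in injured mutant discs 1 to 5 it was 54.4, 33.1, 39.9, 18.0 and 29.0 TPM. Every injured library exceeded every intact one, in injured wild-type mice 1 and 2 too.
Adam12 rose in mutants by 4.08 ± 0.44 (limma adjusted p = 0.0001735) and in wild-type mice by 3.28 ± 0.50 (adjusted p = 0.02672). It was the one member that passed in both genotypes. The wild-type call was held by 11 of the 16 fits that left out 1 library, with adjusted p from 0.00248 to 0.1209. It was lost without injured wild-type mouse 4, any 1 of the 3 intact wild-type mice or injured mutant 5, and with only the 2 wild-type groups in the fit (adjusted p = 0.1967).

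Adam19 (ENSMUSG00000011256; chromosome 11, 46055992 to 46147343, plus strand) encodes meltrin beta, known for processing neuregulins, and its promoter window above was the one that held motif matches. Its level was 4.34, 4.15 and 2.18 TPM in intact wild-type and 5.40, 3.36, 8.56 and 2.44 TPM in intact mutant discs. It was 5.76, 11.8, 61.3 and 28.2 TPM in injured wild-type discs 1 to 4 and 39.7, 67.3, 31.1, 55.0 and 24.0 TPM in injured mutant discs 1 to 5. Within each genotype the injured libraries lay above the intact ones, with injured wild-type mouse 1 closest to them. Adam19 rose in mutants by 2.92 ± 0.52 (limma adjusted p = 0.00162), and the wild-type difference was 2.17 ± 0.60 (adjusted p = 0.1371).

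The broad sheddases moved less. Adam17 (ENSMUSG00000052593; chromosome 12, 21323509 to 21373632, minus strand) encodes the enzyme that releases tumour necrosis factor. Intact wild-type discs held 24.8 ± 1.68 TPM (SD, n = 3) and injured ones 41.2 ± 14.5 TPM (SD, n = 4). Intact mutant discs held 25.6 ± 3.23 TPM (SD, n = 4), against 54.9 ± 11.2 TPM (SD, n = 5) in injured ones. The injured mutant libraries, at 41.4 to 71.2 TPM, were clear of the intact ones at 22.4 to 30.0 TPM. Adam17 rose in mutants by 1.06 ± 0.20 (limma adjusted p = 0.002052), and the wild-type difference was 0.65 ± 0.23 (adjusted p = 0.1961).
Adam10 (ENSMUSG00000054693; chromosome 9, 70678997 to 70780229, plus strand) encodes the sheddase that cuts Notch receptors and N-cadherin. It was at 50.7 ± 5.05 and 68.3 ± 17.7 TPM in intact (n = 3) and injured (n = 4) wild-type discs, and at 51.2 ± 4.01 and 73.2 ± 10.1 TPM in intact (n = 4) and injured (n = 5) mutant discs (SD). It had the smallest rise of the 6 members called in mutants, 0.50 ± 0.14 (limma adjusted p = 0.0178). The wild-type difference was 0.40 ± 0.16 (adjusted p = 0.2506), and its injured and intact wild-type values overlapped.

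Adam9 (ENSMUSG00000031555; chromosome 8, 24949611 to 25016927, minus strand) encodes meltrin gamma, a widely expressed member. Its injured mutant libraries were at 83.5 to 107.3 TPM and its intact mutant libraries at 46.4 to 50.3 TPM, with no overlap. Adam9 rose in mutants by 0.97 ± 0.17 (limma adjusted p = 0.001496). In wild-type discs it was at 41.6 to 51.9 TPM intact and 51.1 to 112.7 TPM injured, a difference of 0.63 ± 0.20 (adjusted p = 0.1626). Injured wild-type mouse 1 lay within the intact range.
Adam15 (ENSMUSG00000028041; chromosome 3, 89338542 to 89349996, minus strand) encodes metargidin, the highest member in intact discs. Its group means were 54.8 ± 7.44 (n = 3), 56.9 ± 13.9 (n = 4), 55.3 ± 5.44 (n = 4) and 57.0 ± 12.5 TPM (n = 5) in intact wild-type, injured wild-type, intact mutant and injured mutant discs (SD). The groups overlapped. The injury difference was 0.02, with a 95% interval of -0.33 to 0.38, in mutants and 0.03, with an interval of -0.37 to 0.44, in wild-type mice (limma adjusted p = 0.9352 and 0.9481). Changes of more than about these bounds were thus outside the intervals, and smaller ones could not be seen with this number of mice.

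Adam23 (ENSMUSG00000025964; chromosome 1, 63445891 to 63596276, plus strand) encodes a member without an active protease site, known as an adhesion protein of neurons. It was the one tested member that fell. In mutants its level was 7.57, 7.92, 9.52 and 5.47 TPM in intact discs 1 to 4 and 3.92, 6.03, 2.97, 3.02 and 1.82 TPM in injured discs 1 to 5. Injured mutant 2 lay inside the intact range and the other 4 lay below it. Adam23 fell by 0.96 on the log2 scale (limma, SE 0.24, adjusted p = 0.008571). In wild-type mice it was at 6.29, 8.72 and 6.45 TPM intact and 7.88, 6.06, 8.18 and 10.0 TPM injured, with overlapping ranges and a difference of 0.14 ± 0.27 (adjusted p = 0.8133).
Adam33 (ENSMUSG00000027318; chromosome 2, 131050591 to 131063814, minus strand), a gene of mesenchymal cells known from asthma genetics, was at 0.0583 to 0.877 TPM in intact and 0.0960 to 1.51 TPM in injured discs. This was 1 to 27 implied reads a library. Its groups were not compared in the fit, and a small difference between them could not be seen at this depth.

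Counted by overlap instead of by the fit, 6 of the 8 tested members had every injured mutant library above every intact mutant library, against 12% of all tested genes. In wild-type mice this held for 4 members, Adam8, Adam12, Adam17 and Adam19, against 9.22% of all tested genes. No member had all injured libraries below all intact ones, against 15.3% of genes in mutants and 6.34% in wild-type mice.
With both genotypes given equal weight, 6 of the 8 members rose and 0 fell, where 15.2% of tested genes rose and 17.3% fell. The differences were 3.71 ± 0.61 for Adam8 (limma adjusted p = 0.0009917), 3.68 ± 0.33 for Adam12 (adjusted p = 3.858e-05) and 2.54 ± 0.40 for Adam19 (adjusted p = 0.0007724). Those of Adam17, Adam9 and Adam10 were 0.85, 0.80 and 0.45, while Adam23, at -0.41 ± 0.18, did not pass (adjusted p = 0.09704).

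**Figure D2:**
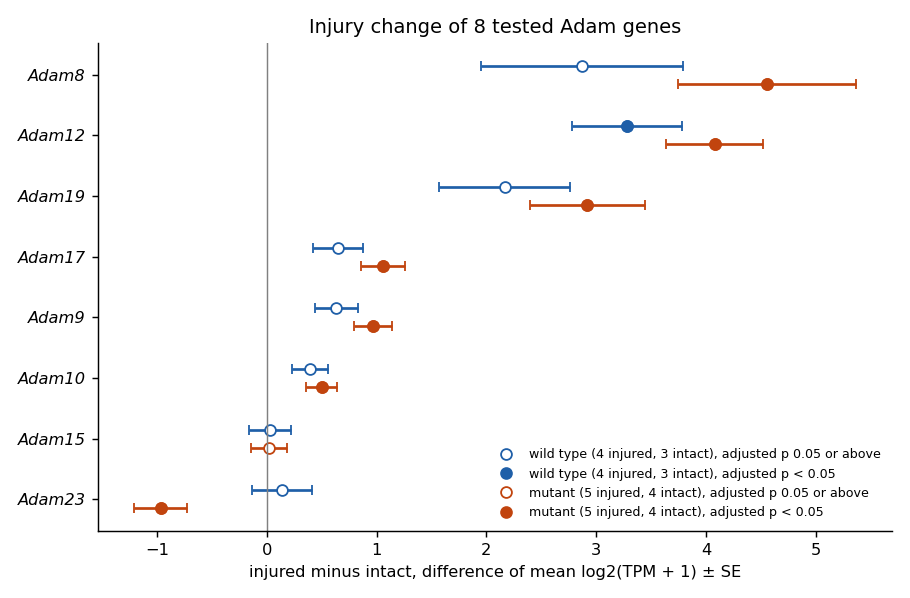
Difference of mean log2(TPM + 1), injured minus intact, for the 8 tested Adam genes in wild-type mice (blue) and in mutants (orange), with bars for the moderated SE of limma. Filled points have an adjusted p under 0.05: Adam12 in wild-type mice, and 7 of the 8 genes, all but Adam15, in mutants, with Adam23 on the negative side.

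The mutant libraries carry names that start with A8 (injured 1 and 2, intact 1 and 2) or M (injured 3, 4 and 5, intact 3 and 4), and all wild-type names start with D. What the letters stand for is not given in the sources used here, and in the wild type the naming and the genotype cannot be told apart. With only the A8 mutants in the fit, 5 of the 8 members were called in the mutant injury comparison, where 14.8% of genes were. With only the M mutants, 1 was, Adam12, where 3% were. Directions were the same in both subsets for the 7 called members. Adam8 differed by 5.56 in the A8 mutants (limma adjusted p = 0.02473) and by 3.97 in the M mutants (adjusted p = 0.06601). Adam12 differed by 4.61 (adjusted p = 0.01552) and 3.67 (adjusted p = 0.02468), and Adam19 by 3.32 (adjusted p = 0.03233) and 2.63 (adjusted p = 0.09178). Adam23 differed by -0.57 (adjusted p = 0.1944) in the A8 and by -1.21 (adjusted p = 0.05348) in the M mutants.

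Adam8 was then set against each relative within the same libraries, as the difference of log2(TPM + 1) between the 2 genes, injured minus intact, averaged over the genotypes. The 8 comparisons used an exact two-sided permutation test that moved libraries within a genotype over 4410 arrangements, with Benjamini-Hochberg adjustment over the 8. The injury change of Adam8 exceeded that of Adam9 by 2.91 ± 0.51 (SE), Adam17 by 2.86 ± 0.49, Adam10 by 3.27 ± 0.55, Adam15 by 3.69 ± 0.52, Adam33 by 3.60 ± 0.54 and Adam23 by 4.13 ± 0.54. Each of these 6 had an adjusted p of 0.00091 in the exact permutation test, whose smallest raw p is 0.00023. The comparison with Adam33 rests on 1 to 27 implied reads a library for that gene.
It exceeded that of Adam19 by 1.17 ± 0.38 (exact permutation p = 0.0093, adjusted p = 0.01063). Adam12 was the relative whose change was closest to that of Adam8. The difference between them was 0.04 ± 0.45 (exact permutation p = 0.94807), at -0.41 in wild-type mice and 0.48 in mutants, and its sign turned under several settings.

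Between genotypes the question was whether the members differ when the Adam8 allele differs. In intact discs, limma called 0 of the 8 members at an adjusted p under 0.05, where 0.0165% of all tested genes were called. An unadjusted p under 0.05 was found for 0 of the 8 and for 3.78% of all tested genes. The differences, mutant minus wild type, ran from -0.03 for Adam8 to 0.31 for Adam19. For Adam8 the 95% interval was -2.0 to 1.94. Its width comes from a spread shared by all 4 groups, and injured libraries varied far more than intact ones. It is therefore not a limit of detection for intact discs. Their levels were 1.24 to 1.69 TPM in wild-type and 0.956 to 2.97 TPM in mutant discs.
In injured discs limma again called 0 of the 8, where 0.918% of genes were called. An unadjusted p under 0.05 was found for 20.3% of all tested genes and for 3 of the 8 members. Those were Adam9, with a difference of 0.38 ± 0.17 (adjusted p = 0.2256), Adam17, with 0.45 ± 0.20 (adjusted p = 0.2247), and Adam23. Adam8 differed by 1.65 ± 0.81, with a 95% interval of -0.08 to 3.38 (adjusted p = 0.268), Adam12 by 0.84 ± 0.44 (adjusted p = 0.2952) and Adam19 by 1.06 ± 0.52 (adjusted p = 0.2701). These 3 were higher on average in injured mutants, but injured wild-type mice 3 and 4 lay within the mutant range for all 3 genes. The differences moved with single libraries. They were 0.98, 0.38 and 0.54 for Adam8, Adam12 and Adam19 without injured wild-type mouse 1, and 2.28, 1.32 and 1.61 without injured wild-type mouse 3. With only the M mutants they were 0.83, 0.60 and 0.84, and with only the A8 mutants 2.89, 1.21 and 1.4, and none passed in either subset. Without injured wild-type mouse 3, Adam9, Adam12, Adam19 and Adam23 passed, a count of 4 in place of 0. The share of all genes called in that fit is not given here. The count therefore cannot be read as particular to these genes.

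Adam23 came closest to a genotype call. Its 5 injured mutant values, at 1.82 to 6.03 TPM, were below the 4 injured wild-type values, at 6.06 to 10.0 TPM, though injured mutant 2 and injured wild-type mouse 2 nearly met. The difference was -1.04 ± 0.24, with a 95% interval of -1.55 to -0.52, and just missed the threshold (limma adjusted p = 0.05425). It passed without injured mutant 2 or injured wild-type mouse 3, and the adjusted p ran from 0.01439 to 0.1679 over the libraries left out. With only the M mutants it was -1.33 and passed (adjusted p = 0.03564), and with only the A8 mutants it was -0.60 and did not (adjusted p = 0.2804).
The interaction, which is the injury change in mutants minus that in wild-type mice, was called for 0 of the 8 members by limma and for 0% of all tested genes. Only Adam23 of the 8 had an unadjusted p under 0.05, with -1.11 ± 0.36 (adjusted p = 0.5034), where 8.18% of all tested genes did. For Adam8 it was 1.69 ± 1.23 (adjusted p = 0.7446), for Adam12 0.80 ± 0.67 (adjusted p = 0.7806) and for Adam19 0.75 ± 0.79 (adjusted p = 0.8225). That Adam8 and Adam19 passed in mutants and not in wild-type mice was therefore not shown to be a difference between the genotypes.

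Leukocyte markers were highest in the library with the highest Adam8, but did not follow Adam8 in every library. The summed level of 9 neutrophil markers was 7.26 to 8.61 TPM in intact wild-type and 1.99 to 3.66 TPM in intact mutant discs. Ly6g and Mpo were at 0 in all intact libraries. In injured wild-type discs 1 to 4 the sum was 4.49, 5.45, 188 and 140 TPM, and in injured mutant discs 1 to 5 it was 83.6, 1014, 31.8, 89.9 and 13.6 TPM. Mpo was at 0 in the injured wild-type and Elane in the injured mutant libraries. Injured mutant 2 was highest in both Adam8 and the neutrophil sum, and injured mutant 5 was lowest among the injured mutants in both. Injured mutant 4 had a slightly higher sum than injured mutant 1 and a lower Adam8. The intact wild-type libraries had higher sums than the intact mutants at a like Adam8. Retnlg was at 2.07 to 4.47 TPM and Elane at 1.025 to 2.21 TPM in intact wild-type discs. In intact mutant discs they were at 0.665 to 2.04 and 0 to 0.684 TPM. At such low levels the gap is not read as a difference in neutrophils.
The summed macrophage markers ran from 152 to 215 TPM in intact discs of both genotypes. They ran from 249 to 3521 TPM in injured wild-type and from 780 to 7711 TPM in injured mutant discs. Lyz2 was the largest part in each injured mutant, at 414 to 5547 TPM. Adgre1, Cd68, Cd14, Mrc1 and Itgam were also higher in every injured mutant than in every intact library. Csf1r was not, at 40.1 to 142.3 TPM against 41.3 to 70.7 TPM (mutant injury difference 0.44, limma adjusted p = 0.4103). Markers of the nucleus pulposus and notochord (5 genes) summed to 3328 to 6431 TPM in intact discs and 552 to 5262 TPM in injured ones. Over the injured mutants they did not run opposite to the macrophage sum. Injured mutant 4 had the highest notochord sum of these, 3345 TPM, at a macrophage sum of 2343 TPM. Injured mutant 1 had the lowest, 552 TPM, at a macrophage sum of 1998 TPM. Osteoclast markers (6 genes) summed to 67.0 to 93.2 TPM in intact discs of both genotypes and 74.0 to 218.7 TPM in injured wild-type discs. In injured mutant discs the sum was 124.7 to 255.6 TPM, clear of all intact libraries. It was almost all Ctsk, at 122.9 to 230.2 TPM in injured mutants. Acp5 was at 0.463 to 23.5 TPM and Dcstamp at 0.433 to 2.39 TPM there, and Calcr, Ocstamp and Oscar stayed under 1 TPM. Endothelial markers (4 genes) summed to 2.17 to 13.1 TPM in intact, 5.91 to 147.7 TPM in injured wild-type and 7.81 to 51.0 TPM in injured mutant discs. The part of these cell types in the changes of Adam8 and the other members was not tested.
In injured wild-type mice 1 and 2 the neutrophil sum was below the intact wild-type range. These sums were low, with S100a8 and S100a9 at 0 to 1.36 TPM in intact wild-type discs. Summed macrophage markers of injured wild-type mice 1 and 2, at 249 and 380 TPM, were above every intact library. So were Adam8 (3.52 and 5.59 TPM) and Adam12 (6.18 and 13.3 TPM). Among the injured mutants, Adam8 was at 16.2 TPM in mutant 5, with the lowest sum, and at 264.1 TPM in mutant 2, with the highest. Adam12 was at 29.0 and 33.1 TPM in these same libraries.

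**Figure D3:**
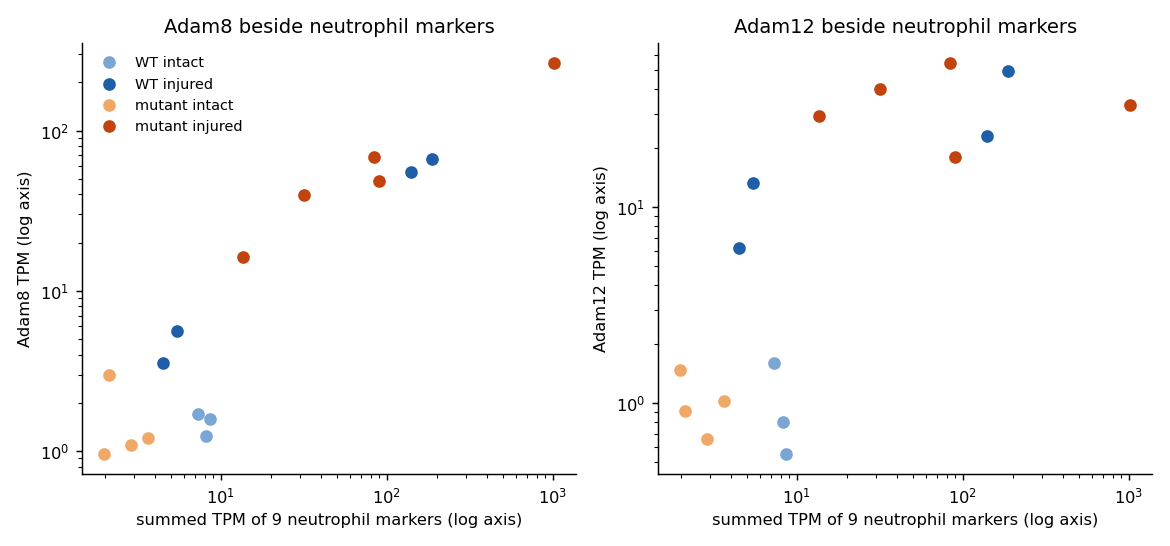
Level of Adam8 (left) and Adam12 (right) in TPM against the summed TPM of 9 neutrophil marker genes, both axes logarithmic, with 1 point per library coloured by group. Over the injured libraries Adam8 was lowest (3.52 TPM) at the lowest marker sum and highest (264.1 TPM) at the highest, and Adam12 was lowest (6.18 TPM) at the lowest sum and highest (54.4 TPM) in injured mutant 1.

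The genes with patterns most like Adam8 and Adam12 were found over the 9 injured libraries, among 11961 genes whose mean there was 5 TPM or more. The 5 closest to Adam8 were Msr1, a scavenger receptor of macrophages (Pearson r 0.99, Spearman rho 1.0), C5ar1, the receptor of complement C5a (0.99, 0.97), the Fc receptor gene Fcgr1 (0.99, 0.88), Emilin2, a matrix glycoprotein gene (0.99, 0.97), and Osm, the cytokine oncostatin M (0.99, 0.98). In mutants Msr1 rose by 4.82 ± 0.83 with injury (limma adjusted p = 0.00128), close to the 4.56 of Adam8. The 5 closest to Adam12 were the transcription factor gene Ets1 (r 0.99, rho 0.98), Msn, which encodes the membrane linker moesin (0.98, 0.98), the phosphatase subunit gene Ppp2r1b (0.98, 0.97), Rgs4, a regulator of G-protein signalling (0.98, 0.97), and the centrosome gene Cep170 (0.97, 0.97). The 2 sets of 5 shared no gene.
Among the members, Adam8 was closest to Adam17 (r 0.96, rho 0.82) and Adam19 (0.92, 0.88), and Adam12 was closest to Adam9 (0.95, 0.90). Adam8 and Adam12 had an r of 0.75 and a rho of 0.73, and r was 0.18 without the 2 libraries farthest from the median of Adam8. Such a drop was not particular to this pair. With libraries left out in the same way, r went from 0.79 to 0.12 for Adam12 with Adam19. For Adam8 with Adam9 it went from 0.875 to 0.55. It stayed at 0.89 for Adam8 with Adam17 and at 0.83 for Adam12 with Adam9. All of these values share the same 9 libraries, 2 genotypes and library depths, and are descriptions.

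Other genes of the shedding pathway were read from lists by role, in the mutant injury comparison, where 13.1% of tested genes rose and 17.7% fell. Of 26 further Adam genes, 25 were in the table, 9 of them were at 0 in every library and 7 more stayed under 1 TPM. Of the 8 that were tested, 0 rose and 2 fell. Adam22, a relative of Adam23 that also lacks an active protease site, fell by 0.98 on the log2 scale (limma, SE 0.22, adjusted p = 0.004853). Adam1b fell by 0.74 (adjusted p = 0.04582), a call lost in 11 of the 16 fits that left out 1 library (adjusted p up to 0.1157), and its reads may be shared with its near copy Adam1a.
Adam22 was also the one gene of all these lists called between the genotypes in injured discs. Its level was 0.818, 1.58, 0.896, 1.95 and 1.09 TPM in injured mutants 1 to 5 and 5.29, 3.97, 2.44 and 2.77 TPM in injured wild-type mice 1 to 4, with no overlap. The difference was -1.01 ± 0.22 (limma adjusted p = 0.04875), and the call was held by 3 of the 16 fits that left out 1 library (adjusted p = 0.01329 to 0.1736). It was not held with only the A8 or only the M mutants (adjusted p = 0.2047 and 0.09884), nor was the interaction called (-0.71, adjusted p = 0.6103).

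Of the partners that mature ADAM10 and ADAM17, 8 were tested, 2 rose and 1 fell. Rhbdf2, which encodes an inactive rhomboid needed to carry ADAM17 to the surface, rose by 1.16 ± 0.32 (limma adjusted p = 0.01401). Tspan14, a tetraspanin partner of ADAM10, rose by 0.90 ± 0.20 (adjusted p = 0.005), and Tspan17 fell by 0.59 (adjusted p = 0.02534). With only the M mutants none of these 3 passed, and with only the A8 mutants Tspan14 alone did. Of 4 convertases, Furin rose by 0.57 (adjusted p = 0.02601), Pcsk7 rose by 0.37 (adjusted p = 0.01636) and Pcsk6 fell by 1.48 (SE 0.28, adjusted p = 0.001989).
The inhibitors moved apart from each other. Timp1 rose by 4.24 ± 0.43 in mutants (limma adjusted p = 0.000127) and by 3.33 ± 0.49 in wild-type mice (adjusted p = 0.02479), the one list gene called in the wild type. Timp4 fell by 3.02 (SE 0.42, adjusted p = 0.000482), Timp2 by 1.25 (adjusted p = 0.000696) and Reck, a membrane-anchored inhibitor, by 0.88 (adjusted p = 0.002519) in mutants. The median difference of the 5 inhibitors was -0.88, against -0.08 over all genes.

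Tested genes of shed proteins rose more often than they fell, but the filter favoured rises for some of them. Of the genes called, Nrg1, Il1r2, Vcam1 and Dll1 had means of 0.0344 to 0.406 TPM in intact discs of either genotype. They passed the filter through injured libraries only. Such genes could enter as risen but hardly as fallen, so the counts below lean towards rises. Of 9 tested cytokines and receptors, 6 rose and 0 fell, among them the tumour necrosis factor receptors Tnfrsf1a (1.03 ± 0.16, limma adjusted p = 0.000784) and Tnfrsf1b (4.10 ± 0.68, adjusted p = 0.001059). Il6ra, the interleukin-6 receptor, rose by 0.78 and the membrane chemokine Cxcl16 by 3.61. Of 5 tested EGF family ligands, 3 rose, namely Ereg by 4.27 ± 0.92 (adjusted p = 0.004073), Hbegf by 2.18 and Nrg1 by 0.90, and 0 fell.
Of 14 adhesion and Notch genes, 7 rose and 1 fell. Cd44, the hyaluronan receptor, rose by 3.26 ± 0.45 (limma adjusted p = 0.000482), Selplg, a leukocyte selectin ligand, by 3.89 and the Notch ligand Jag1 by 1.81, while Cdh2, the N-cadherin gene of notochordal cells, fell by 1.71. Of 3 matrix genes, Fn1, the fibronectin gene, rose by 1.69 ± 0.48 (adjusted p = 0.01657), and Col2a1 and Acan, at -0.04 and -0.29, did not pass. The medians of the cytokine, EGF, adhesion and matrix lists were 1.03, 0.90, 1.0 and -0.04, against -0.08 over all tested genes. The neutrophil, macrophage and notochord marker sums given above also moved with injury in mutants, and their part in these lists was not tested.

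Of the 24 list genes named here for the mutant injury comparison, 7 were called both with only the A8 and with only the M mutants. These were Timp1, Timp2, Timp4, Cd44, Selplg, Il6ra and Tnfrsf1a. With only the M mutants 16 lost the call, and with only the A8 mutants 10 did. Besides Adam1b, 4 genes lost it when 1 library was left out. Fn1 did without intact mutant 2 (1.60, limma adjusted p = 0.05623). Nrg1 did without injured mutant 2 (0.70, adjusted p = 0.05522), intact mutant 1 (0.88, adjusted p = 0.05762) or intact mutant 2 (0.88, adjusted p = 0.05956). Furin did without injured mutant 3 or 5 or intact mutant 1 or 2, with adjusted p from 0.05301 to 0.09024. Tspan17 did without injured mutant 3 or intact mutant 1 or 3, with adjusted p from 0.054 to 0.08413. Other settings ended some of these calls too. Fn1 was not called with no filter (adjusted p = 0.1488), with only the mutant groups in the fit (adjusted p = 0.08545) or with a replicate block (adjusted p = 0.07376). Tspan17 was not called with only the mutant groups (adjusted p = 0.0563) or with the block (adjusted p = 0.06171), nor was Furin with the block (adjusted p = 0.06461). Adam1b was not called with no filter, with either other scaling or with the block (adjusted p = 0.05235 to 0.07629).

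**Figure D4:**
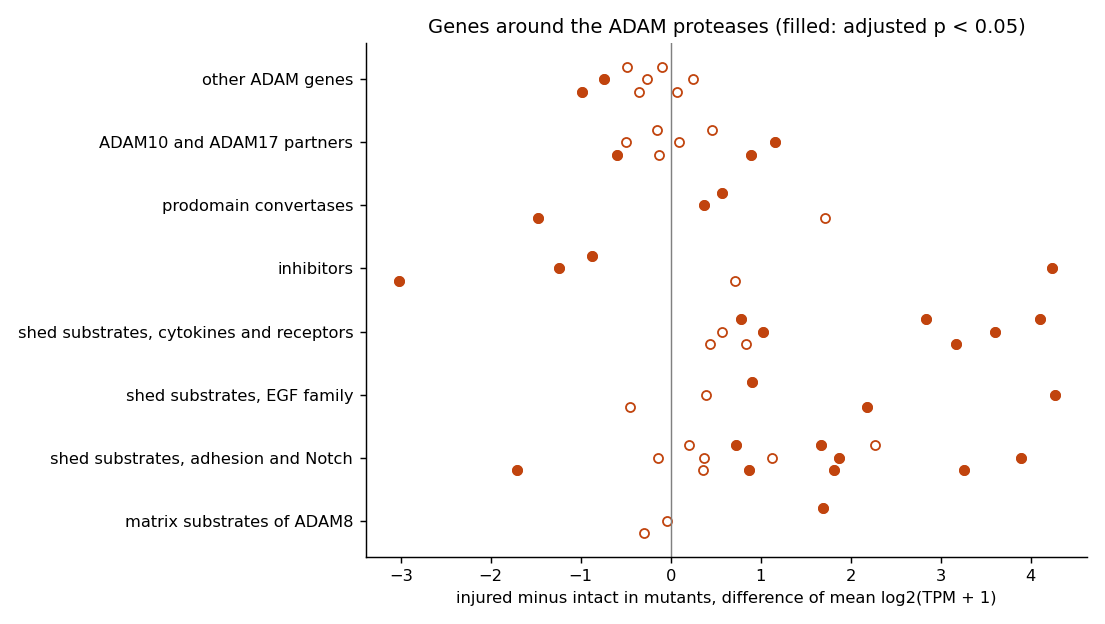
Difference of mean log2(TPM + 1), injured minus intact in mutants, for the tested genes of 8 lists around the ADAM proteases, 1 point per gene, filled where the limma adjusted p was under 0.05. Of the list labelled matrix substrates of ADAM8, only fibronectin is taken here as a known substrate. The inhibitors lie on both sides of 0, from Timp4 at -3.02 to Timp1 at 4.24, and the filled points of the cytokine and EGF lists are all on the positive side. Some of those genes passed the filter through injured libraries only.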

How the data were processed

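RNA of the discs of 16 mice was sequenced in bulk, and libraries were grouped by the genotype and injury in their titles. Per the labels, ribosomal RNA was depleted before library preparation, although the molecule field reads polyA RNA. The values, as deposited by the authors, are TPM in 1 table that pairs Ensembl identifiers with gene names. The submitters' processing notes name bcl2fastq 2.20 and GRCm38. The aligner, counter, annotation and use of strand are not given in the sources used here. Where several rows share a name, the row with the highest mean was used.

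Implied reads came from the steps between low TPM values and GENCODE M21 exon lengths, and 94.06% to 94.91% of values under 20 reads a library were within 0.05 of a whole number. M21 held 49056 of the identifiers (99.5%). These reads are approximate and TPM was tested on the log scale. One limma 3.58.1 fit (R 4.3.3; lmFit, eBayes with trend) of log2(TPM + 1), pseudocount 1, took all 16 libraries with a mean per group. Genes had at least 1 TPM in at least 3 libraries. Adjusted p-values are Benjamini-Hochberg over 24188 genes, with a threshold of 0.05. The test was tried on simulated data. Adam8 was compared with relatives by exact permutation (Python 3.11.15, scipy 1.17.1). The p-values measure the spread between mice.

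The 9 members, the gene lists, the markers and the rule for names (all members; up to 4 called genes a list with the smallest p in mutant injury; the 5 genes closest to Adam8 and to Adam12) were chosen with earlier results of these data known. Alternatives changed the pseudocount, filter, scaling, weights, libraries and block. Protein sequences were not used here.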

Additional observations from a re-analysis of the deposited data

Results flagged for a closer look

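Adam8 in intact mutant 1 was at 2.97 TPM, far from the other 3 intact mutants at 0.956 to 1.20 TPM. On the log2(TPM + 1) scale its gap to the nearest of them was 0.832 of the range of the group, just past the 95% critical value of 0.829 for 4 samples. It was the 1 flag among 27 groups of values checked, and chance flags about 1 in 20. The summed neutrophil markers of this library, 2.13 TPM, lay within the range of the other intact mutants.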

How the results depend on the processing

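The count of members called with injury in mutants was 7 in each alternative except those that kept part of the mutants, 5 with only the A8 and 1 with only the M mutants. The count in wild-type mice (1, Adam12) was 0 with only the 2 groups compared in the fit, and 0 to 3 when 1 library was left out (3, with Adam9 and Adam19, without injured wild-type mouse 1). The count between genotypes in injured discs (0) was 1 with a filter at a mean of 5 TPM and 1 with sample weights. It was 1 with only the M mutants, and 0 to 4 when 1 library was left out. Shares of all genes called in the fits that left out 1 library are not given here beside these counts. The difference between the injury changes of Adam8 and Adam12 (0.04) turned to -0.23 with a pseudocount of 0.1, -0.17 with medians and -0.055 with only the M mutants, and ran from -0.24 to 0.23 when 1 library was left out. Adam8 minus Adam19 was 1.47 with only the A8 mutants and missed the threshold (exact permutation, adjusted p = 0.05442).

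Signs turned for values near 0. With sample weights the injury change of Adam15 was -0.012 in mutants, -0.029 in wild-type mice and -0.020 on average. With 1 library left out it ran from -0.085 to 0.085, -0.10 to 0.14 and -0.041 to 0.081. The genotype difference of Adam8 in intact discs was 0.015 with quantile normalization, 0.20 with only the A8 mutants and -0.27 to 0.073 with 1 library left out. Of the values of single genes under an alternative, 1402 kept direction and side of the threshold, 94 lost a call, 12 gained one and 20 changed sign, and the cause was not tested.

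Groups share replicate numbers, but the same number stands for different mice. The residuals of 21 same-numbered pairs correlated at -0.217 to 0.151 (1 pair over 0.1), and 3 of 16 libraries were closest to one of their own number, so the numbers were not taken as pairs. With the replicate block the wild-type injury count was 0, the mutant count 7 and the genotype count in injured discs 0. Low levels limit Adam33, and groups of 3 to 5 mice limit every interval.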
